A study of Saccharomyces cerevisiae with 4 samples.

Results

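The 130 genes described here had small RNAs in budding yeast with a rebuilt RNA interference (RNAi) pathway that were at least 3 times less abundant when the exonuclease gene XRN1 was missing. They were chosen from 5775 genes of the nuclear chromosomes in a table of 5798 identifiers; identifiers starting with Q or R were left out. A member had a value of 50 or more in cells with the pathway and XRN1. With 3 added to each value, that value was at least 3 times the one in cells with the pathway and without XRN1, and at least 2 times the one in wild-type cells. The direction of both differences is therefore fixed by the choice of the genes. Without the XRN1 term the rule holds 708 genes, and the remaining 578 are called other pathway genes below.

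Small RNAs of 10 to 40 nucleotides were sequenced from 4 genotypes of Saccharomyces cerevisiae, with 1 library each. Strain YAM1982 lacked XRN1 and carried DCR1 and AGO1 (xrn1 RNAi), and strain YAM1725 carried DCR1 and AGO1 with XRN1 present (RNAi). Strain YAM2271 lacked XRN1 and had no added pathway (xrn1), and strain YAM1730 was wild type (WT). The series was meant to map double-stranded RNA with the rebuilt pathway.

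Budding yeast has lost RNAi, so DCR1 and AGO1 have to be added to restore it. The DCR1 product, a Dicer, cleaves double-stranded RNA into short duplexes. The AGO1 product, an Argonaute, takes up their strands. XRN1 encodes the main cytoplasmic exonuclease that degrades RNA from its 5′ end, and many antisense and other noncoding RNAs of yeast are known to be degraded by it. Read lengths and strands are not in the table, so a higher value in a library with the pathway is not shown to be a Dicer product.

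XRN1 itself had no value above 0 in xrn1 RNAi, with a limit of 0.229 for a count of 0, and 12.4 in RNAi. It had 0.991 in xrn1, which is 3 reads, and 148 in WT. The reads over listed genes numbered 7686801 in xrn1 RNAi, 1801407 in RNAi, 2825322 in xrn1 and 627607 in WT. Values are on the deposited scale, not divided by gene length, on which 1 read was worth 0.0762 in xrn1 RNAi, 0.318 in RNAi, 0.330 in xrn1 and 1 in WT. Each genotype has 1 library, so differences have no replicates behind them. Intervals are 95% intervals of counting error alone, fewer cells and less RNA per cell cannot be told apart, and "higher" and "lower" refer to a pair of libraries.

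The members held 3.69% of the nuclear small RNA value in xrn1 RNAi, 18.8% in RNAi, 1.85% in xrn1 and 2.61% in WT. Their median value was 82.2 in xrn1 RNAi (range 3.96 to 2246), 467 in RNAi (56.5 to 6918), 66.2 in xrn1 (1.32 to 493) and 66 in WT (5 to 457). RNAi was thus the high library, and the ranges of the other 3 overlapped widely. The other pathway genes had medians of 283 in xrn1 RNAi, 248 in RNAi, 94.5 in xrn1 and 50.5 in WT.

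All 130 members are lower in xrn1 RNAi than in RNAi and higher in RNAi than in WT by the rule, in a table where 11.5% of 5089 counted genes were 2-fold or more lower and 33.6% higher in the first comparison. In the second, 15.2% of 5486 were at least 2-fold higher and 60.2% lower. The median fold by which members were lower in xrn1 RNAi was 4.78, with 3.05 as the lowest and 119 as the highest. After adding 3 to each value, the ratio was 6 or more for 40 members and 10 or more for 10. With size factors 504 genes met the rule, all 130 members among them. In RNAi, 28 members had values of 1000 or more and 8 had values under 100. The edge of the rule ran through a continuous range: TPH3, MTO1 and ASK1 lay just inside it, with ratios of 3.006, 3.006 and 3.028, while RCI37, PTC6 and CAT2 lay just outside, with 2.99, 2.988 and 2.972. The lowest RNAi values inside were those of YGL235W (56.5), SSA4 (62.6) and BSC1 (65.1), and the highest outside were those of TIR4 (48.9), TFS1 (41.6) and NPY1 (41.0).

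**Figure D1:**
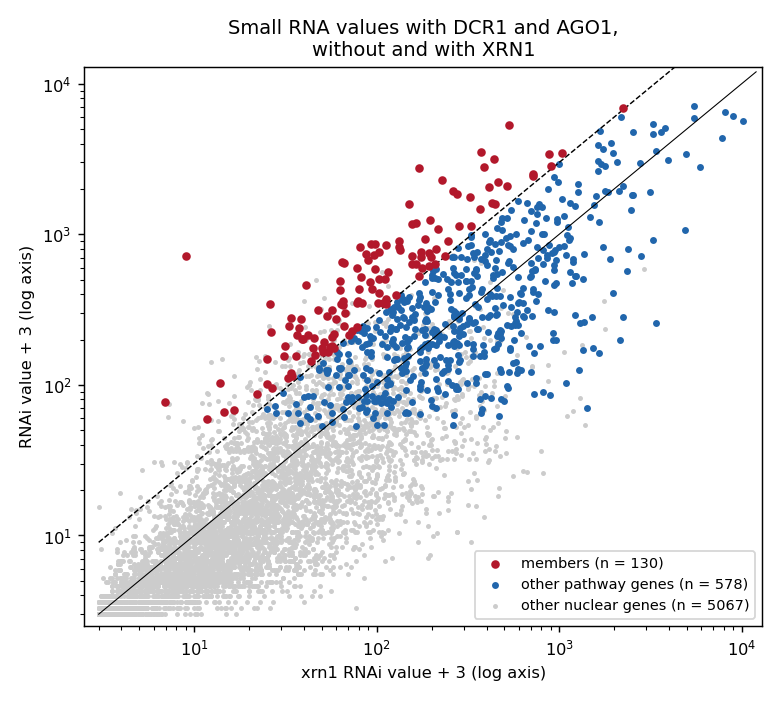
Small RNA value plus 3 in xrn1 RNAi (x axis) and in RNAi (y axis), both on log axes, for 130 members (red), 578 other pathway genes (blue) and the remaining nuclear genes (grey). The solid line marks equal values and the dashed line the ratio of 3 in the rule; PRP39 lies alone at the left, at 6.02 in xrn1 RNAi and 716 in RNAi before 3 was added.

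Transcription factor and chromatin genes supplied some of the largest values. HMS2 (YJR147W), whose product resembles heat shock factors, had a value of 2246 in xrn1 RNAi, 6918 in RNAi, 189 in xrn1 and 110 in WT. It was the most abundant member in both libraries with the pathway and was 3.08-fold lower in xrn1 RNAi than in RNAi (interval 3.03 to 3.13). SGF29 (YCL010C), a subunit gene of the SAGA histone acetyltransferase complex, had 371 in xrn1 RNAi, 3510 in RNAi, 110 in xrn1 and 96 in WT. It was 9.45-fold lower in xrn1 RNAi (9.14 to 9.78), and its RNAi value stood far above the other 3. HAP1, a haem-responsive activator gene, had 713 in xrn1 RNAi, 2450 in RNAi, 147 in xrn1 and 196 in WT, and a Ty element or its long terminal repeat adjoins it in the reference. RDS1, a zinc cluster factor gene, had 717 in xrn1 RNAi, 2510 in RNAi, 104 in xrn1 and 108 in WT. Both kept a larger value in xrn1 RNAi than in xrn1 or WT. Of the 18 genes assigned to this role after their values were seen, RNAi values ran from 74.0 to 6918.

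Protein kinase and signalling genes made up 20 members. RIM15 (YFL033C), a kinase gene needed for entry into quiescence, had 530 in xrn1 RNAi, 5332 in RNAi, 140 in xrn1 and 182 in WT, a 10.1-fold lower value in xrn1 RNAi than in RNAi (9.78 to 10.3). TOR1, which encodes a growth-controlling kinase, had 879 in xrn1 RNAi, 3393 in RNAi, 246 in xrn1 and 317 in WT, a 3.86-fold difference (3.76 to 3.96). The kinase genes thus differed in how much was left in xrn1 RNAi. In the cell cortex group, MHP1, a microtubule-associated protein gene, had 438 in xrn1 RNAi, 3137 in RNAi, 117 in xrn1 and 192 in WT. SEG1, an eisosome assembly gene, had 904 in xrn1 RNAi, 2855 in RNAi, 157 in xrn1 and 169 in WT. MHP1 was 7.16-fold lower in xrn1 RNAi than in RNAi, and SEG1 3.16-fold.

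Among metabolic genes, PSD2, a phosphatidylserine decarboxylase gene, had 1036 in xrn1 RNAi, 3462 in RNAi, 173 in xrn1 and 317 in WT. PPN1, a polyphosphatase gene, had 224 in xrn1 RNAi, 2309 in RNAi, 171 in xrn1 and 170 in WT. Its xrn1 RNAi value was close to the values of both libraries without the pathway, while that of PSD2 was well above them. FKS3, a gene similar to those of glucan synthase, had 383 in xrn1 RNAi, 2800 in RNAi, 46.9 in xrn1 and 113 in WT. PTH1, a peptidyl-tRNA hydrolase gene, had 61.5 in xrn1 RNAi, 648 in RNAi, 17.8 in xrn1 and 38 in WT, a 10.5-fold lower value in xrn1 RNAi (9.71 to 11.4). Divided by coding length, the highest RNAi values were those of HMS2 (6424 per kb), SGF29 (4500), PET122 (2071), FRE5 (1328) and NHP6A (1219), against a median of 206 per kb over the members.

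**Figure D2:**
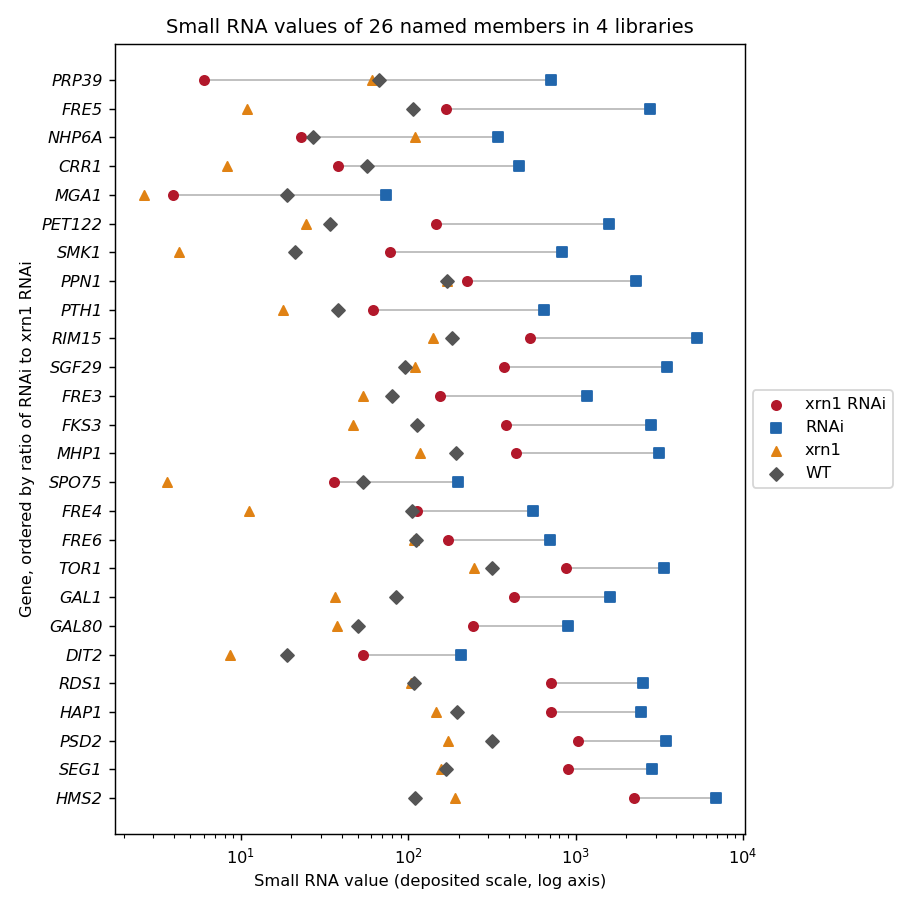
Small RNA value (x axis, log scale) of 26 members in xrn1 RNAi (red circles), RNAi (blue squares), xrn1 (orange triangles) and WT (grey diamonds). Genes are ordered from top to bottom by the ratio of RNAi to xrn1 RNAi with 3 added to each value. The grey line joins the plain values of xrn1 RNAi and RNAi, from PRP39 at the top (119-fold) to HMS2 (3.08-fold), and its length does not fall strictly in order. The xrn1 triangle lies left of the WT diamond for FRE5, CRR1, SMK1, SPO75 and FRE4, and for others such as MGA1 and FKS3.

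PRP39 (YML046W), a gene for a U1 snRNP splicing factor, had the largest ratio. Its value was 6.02 in xrn1 RNAi, 716 in RNAi, 60.8 in xrn1 and 67 in WT, a 119-fold lower value in xrn1 RNAi than in RNAi (94.98 to 151). It thus lay below both libraries without the pathway once XRN1 was missing. In the R64 annotation its coding sequence is on the forward strand at chrXIII:181474-183363, with a tRNA gene 534 bases away and a Ty element or long terminal repeat 806 bases away. Its listed neighbours PRM6 (0 in xrn1 RNAi and 0.635 in RNAi) and RRN11 (7.16 in xrn1 RNAi and 0.953 in RNAi) did not share its high RNAi value. PRP39 was the 1 member among 60 listed splicing genes. Of the 52 of these counted in xrn1 RNAi over RNAi, 20 were 2-fold or more higher and 4 lower, near the shares of 33.6% and 11.5% over all counted genes, and the median log2 difference was 0.56, against 0.55 over all counted genes.

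Genes of spore formation were 4 of the members: SMK1, CRR1, DIT2 and SPO75, all 4 of the pathway genes in a list of 34. Members are 2.25% of all nuclear genes and 18.4% of pathway genes, and the lists were chosen with earlier results of these data known. Of the 20 listed spore formation genes counted in xrn1 RNAi over RNAi, 6 were 2-fold or more lower and 2 higher. The shares over all counted genes were 11.5% lower and 33.6% higher. The lower genes include the 4 members, which are lower by the rule. Of the higher genes, SPO21 had 31.7 in xrn1 RNAi and 3.81 in RNAi, and SPR1 had 331 in xrn1 RNAi and 106 in RNAi. Cells form spores after meiosis, and the genes of this programme are held silent in growing cells and switched on in stages. SMK1 (YPR054W), the mitogen-activated protein kinase gene of spore wall assembly, had 78.0 in xrn1 RNAi, 826 in RNAi, 4.30 in xrn1 (13 reads) and 21 in WT. CRR1 (YLR213C), which encodes a spore wall protein similar to glycoside hydrolases, had 38.1 in xrn1 RNAi, 457 in RNAi, 8.26 in xrn1 (25 reads) and 57 in WT. SPO75 (YLL005C), needed for spore formation, had 36.0 in xrn1 RNAi, 198 in RNAi, 3.63 in xrn1 (11 reads) and 54 in WT. All 3 were lowest in xrn1. The fold by which they were lower in xrn1 RNAi than in RNAi was 10.6 for SMK1 (9.85 to 11.4), 12 for CRR1 (10.8 to 13.3) and 5.52 for SPO75 (4.89 to 6.23). DIT2, an enzyme gene of the dityrosine layer of the spore wall, had 54.0 in xrn1 RNAi, 206 in RNAi, 8.59 in xrn1 (26 reads) and 19 in WT. RED1, an axial element gene and the 1 member among 26 meiosis genes, had 110 in xrn1 RNAi, 368 in RNAi, 45.6 in xrn1 and 57 in WT.

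SMK1, CRR1 and SPO75 are shown because their start regions hold the middle sporulation element GNCACAAA. It was searched on both strands from 250 bases before to 50 bases after the start codon. The spore formation member DIT2 held none, and the other members with the element were NUM1, ASK1, NHP6A and MDJ2. The sequences come from the RefSeq R64 genome, each in the direction of its gene, with matches in capitals. SMK1 is at chrXVI:666030-666329 on the forward strand, with a URS1 core (GGCGGC) 151 bases and a reverse-strand middle element 79 bases before the start codon. CRR1 is at chrXII:567873-568172 on the reverse strand, with the element 149 bases before the start codon, and SPO75 is at chrXII:140497-140796 on the reverse strand, with the element 109 bases before it.
SMK1: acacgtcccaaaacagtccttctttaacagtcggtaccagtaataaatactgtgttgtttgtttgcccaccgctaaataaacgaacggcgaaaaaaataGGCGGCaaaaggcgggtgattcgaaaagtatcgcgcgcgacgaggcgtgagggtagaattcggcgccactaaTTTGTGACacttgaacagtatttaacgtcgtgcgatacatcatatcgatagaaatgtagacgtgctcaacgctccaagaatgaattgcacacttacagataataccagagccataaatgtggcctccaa
CRR1: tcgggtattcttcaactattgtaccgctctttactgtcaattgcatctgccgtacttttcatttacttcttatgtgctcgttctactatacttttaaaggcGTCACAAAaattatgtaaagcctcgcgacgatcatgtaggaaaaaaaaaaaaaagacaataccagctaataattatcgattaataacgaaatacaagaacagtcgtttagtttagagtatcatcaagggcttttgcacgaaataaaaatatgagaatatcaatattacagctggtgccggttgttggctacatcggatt
SPO75: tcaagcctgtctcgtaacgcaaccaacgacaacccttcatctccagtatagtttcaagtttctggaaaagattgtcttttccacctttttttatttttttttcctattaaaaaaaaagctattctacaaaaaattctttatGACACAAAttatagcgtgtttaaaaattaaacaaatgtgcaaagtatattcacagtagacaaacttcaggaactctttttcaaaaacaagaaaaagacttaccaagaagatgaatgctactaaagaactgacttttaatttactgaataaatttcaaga

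Over the members, 7 held the middle sporulation element (5.38%), against 4.35% of all 5769 start regions, and 4 held the URS1 core (3.08%), against 5.20%. The other 6 motifs were counted in the same way. The MluI cell cycle box ACGCGT was in 4.62% against 3.17%, the GATA factor word GATAAG in 13.8% against 14.8%, and the stress response word AGGGG in 25.4% against 21.8%. The Reb1 word CGGGTAA was in 8.46% against 7.31% and TATAAA in 41.5% against 44.6%. The Gal4 motif was in 4 members (3.08%), against 1.35% of all start regions and 2.25% of those of other pathway genes. The 4 were HMS2, SEG1, GAL80 and ATS1, of which only GAL80 is in the galactose list below. Words that match by chance are counted as well, and the SMK1 and NHP6A windows overlap, so 1 site can count for both.

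GAL1 and GAL80 were 2 of the 6 pathway genes in a list of 11 galactose genes, beside 130 members among all 708 pathway genes. GAL1, the galactokinase gene, had 426 in xrn1 RNAi, 1607 in RNAi, 36.7 in xrn1 and 84 in WT. GAL80, which encodes the repressor of the activator Gal4, had 243 in xrn1 RNAi, 905 in RNAi, 37.7 in xrn1 and 50 in WT. The fold by which the value was lower in xrn1 RNAi was 3.77 for GAL1 (3.63 to 3.92) and 3.72 for GAL80 (3.54 to 3.91), so the repressor gene and the enzyme gene had nearly equal folds. GAL4, the activator gene, is no member, with 676 in xrn1 RNAi and 910 in RNAi. MTH1, a glucose signalling gene of the list, lay the other way, with 536 in xrn1 RNAi and 174 in RNAi. Of the 10 genes counted in xrn1 RNAi over RNAi, 3 were 2-fold or more higher, which is near the 33.6% of all counted genes. Another 3 were lower, beside 11.5% of all counted genes, and GAL1 and GAL80 are among them by the rule. GAL1 lies within an annotated noncoding RNA in R64, on its own strand. GAL80 is shown because its start region holds a Gal4 motif (in capitals) 172 bases before the start codon. The region is chrXIII:171344-171643 on the forward strand in R64. The start region of GAL1 held no match, but it reaches only 250 bases before the start codon. GAL1 and its divergent neighbour GAL10 lie 668 bases apart. Bases farther from the GAL1 start codon were not searched for GAL1, so Gal4 motifs there are not excluded.
GAL80: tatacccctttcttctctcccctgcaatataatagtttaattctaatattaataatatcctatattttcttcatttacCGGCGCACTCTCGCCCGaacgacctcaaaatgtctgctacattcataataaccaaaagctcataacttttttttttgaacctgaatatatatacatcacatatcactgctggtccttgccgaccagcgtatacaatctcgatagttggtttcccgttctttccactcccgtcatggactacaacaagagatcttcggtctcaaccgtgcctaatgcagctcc

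Iron reductase genes contributed FRE3, FRE4, FRE5 and FRE6, 4 of the 10 pathway genes in a list of 25 iron genes. Over the whole table, 130 of 708 pathway genes are members. The FRE proteins reduce ferric iron or iron bound to siderophores at the cell surface or the vacuole; FRE5 is known as a reductase by similarity. FRE5 (YOR384W) had 168 in xrn1 RNAi, 2770 in RNAi, 10.9 in xrn1 (33 reads) and 107 in WT, a 16.5-fold lower value in xrn1 RNAi than in RNAi (15.8 to 17.3). FRE3 had 154 in xrn1 RNAi, 1169 in RNAi, 53.5 in xrn1 and 80 in WT. FRE4 is known for iron bound to siderophores and FRE6 for the vacuole. FRE4 had 113 in xrn1 RNAi, 557 in RNAi, 11.2 in xrn1 (34 reads) and 106 in WT. FRE6 had 172 in xrn1 RNAi, 702 in RNAi, 108 in xrn1 and 112 in WT. FRE5 and FRE4 shared the low value in xrn1, which FRE3 and FRE6 did not. In xrn1 RNAi over RNAi, 9 of the 25 iron genes were higher at 2-fold and 7 lower, beside 33.6% and 11.5% of all counted genes, FRE7 being among those with neither (2514 in xrn1 RNAi and 1828 in RNAi).

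Filamentous growth is the switch to elongated, adhering cells. A list of its regulator genes, which also holds the flocculin gene FLO11, included 5 members among 21 genes and 8 pathway genes. The 5 were HMS2, MGA1, FLO8, SOK2 and FLO11. Over the whole table, members are 130 of 5775 nuclear genes and 130 of 708 pathway genes. FLO8, the activator gene of flocculation, annotated as a pseudogene in the reference strain, had 59.6 in xrn1 RNAi, 488 in RNAi, 59.5 in xrn1 and 88 in WT. SOK2, a regulator gene of the protein kinase A pathway, had 207 in xrn1 RNAi, 633 in RNAi, 77.0 in xrn1 and 91 in WT. FLO8 had nearly equal values in xrn1 RNAi and xrn1, while SOK2 was higher in xrn1 RNAi. MGA1, similar to heat shock factors, had 3.96 in xrn1 RNAi, 74.0 in RNAi, 2.64 in xrn1 (8 reads) and 19 in WT, and was 18.7-fold lower in xrn1 RNAi than in RNAi (13.8 to 25.7). FLO11, the flocculin gene that such factors control, had 28.4 in xrn1 RNAi, 179 in RNAi, 9.58 in xrn1 and 6 in WT. The flocculin genes FLO1 (75.4 in xrn1 RNAi and 344 in RNAi) and FLO10 (125 in xrn1 RNAi and 393 in RNAi) were members as well. FLO genes, and NHP6A with its paralog, have similar copies, and reads shared between copies would make their values uncertain. In the list as a whole, 3 of 21 genes were higher at 2-fold in xrn1 RNAi than in RNAi and 5 lower. The shares over all counted genes were 33.6% and 11.5%. The 5 lower genes are the members, which are lower by the rule.

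The remaining lists held few or no members. Mitochondrial translation activators had 1 of 25 (PET122) and chromatin HMG and histone chaperone genes 1 of 20 (NHP6A). DNA replication (48 genes in the table), nitrogen catabolism (32), fatty acid oxidation (21) and gluconeogenesis (14) had 0, and 4, 5, 4 and 3 of their genes were pathway genes. With 2.25% of all nuclear genes being members, a count of 0 or 1 in a list of this size is near the background. In xrn1 RNAi over RNAi, 16 of the 48 replication genes passed 2-fold upwards and 4 downwards, near the shares of 33.6% and 11.5% over all counted genes. The same 2 counts were 7 and 5 of 32 for nitrogen catabolism, 2 and 6 of 20 for fatty acid oxidation, and 6 and 2 of 13 for gluconeogenesis.

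The xrn1 library was not used to choose the genes, so it can place them once more. In xrn1 RNAi over xrn1, which asks what the pathway added without XRN1, 53 of 130 members were 2-fold or more higher and 17 lower, while 15.4% of 5429 counted genes were higher and 58.0% lower. Among the other pathway genes 417 of 578 were higher and 9 lower. The median log2 difference was 0.56 over the members, 1.88 over the other pathway genes and -1.46 over all genes. Relative to all genes the members' median was 2.02. Scale mattered: size factors (median of ratios) shift this difference by 1.61, and then 97 members were higher and 2 lower, beside 1778 of all genes higher and 1669 lower. The rule set the xrn1 RNAi value of members low, and that part of the difference from other pathway genes is no finding.

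The value of 83 members was larger in xrn1 RNAi than in xrn1. FRE5 stood highest among those with 50 or more in a library by this difference after adding 3, being 15.4-fold higher in xrn1 RNAi (10.9 to 22.4), followed by HMS2 (11.9-fold), SMK1 (18.2-fold, 10.6 to 34.2), GAL1 (11.6-fold) and the uncharacterised YMR317W (105 in xrn1 RNAi and 9.91 in xrn1, 10.6-fold). Among role groups made after values were seen, the 5 members of meiosis and spore formation were 2-fold or more higher. So were 7 of 8 flocculin and cell surface genes, beside 53 of all 130 members. Over the whole spore formation list, 10 of 27 counted genes were higher and 8 lower, beside 15.4% and 58.0% of all counted genes. Lower ones included ADY3 (2.97 in xrn1 RNAi and 39.0 in xrn1) and SPO14 (11.7 in xrn1 RNAi and 136 in xrn1). The lowest members were PGI1, PRP39, NHP6A, MAK10 and FPK1. PGI1, the phosphoglucose isomerase gene of glycolysis, had 44.7 in xrn1 RNAi, 311 in RNAi, 381 in xrn1 and 146 in WT. It was 8.52-fold higher in xrn1 than in xrn1 RNAi and the 1 member whose highest value was not in RNAi. NHP6A, a gene for a small DNA-bending chromatin protein, had 23.0 in xrn1 RNAi, 344 in RNAi, 109 in xrn1 and 27 in WT. MAK10, a subunit gene of an N-terminal acetyltransferase, had 10.9 in xrn1 RNAi, 99.7 in RNAi, 55.5 in xrn1 and 41 in WT. FPK1, a kinase gene acting on lipid flippases, had 34.7 in xrn1 RNAi, 235 in RNAi, 134 in xrn1 and 113 in WT. In these 5 the xrn1 RNAi value was the lowest of the 4.

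In xrn1 over WT, which asks what loss of XRN1 does without the pathway, 9 of 130 members were 2-fold or more higher and 24 lower, while 33.3% of 5502 counted genes were higher and 10.1% lower. Of 577 other pathway genes counted, 247 were higher and 25 lower. The median log2 difference was -0.11 over the members, 0.83 over the other pathway genes and 0.51 over all genes. Relative to all genes the members' median was -0.62. Size factors shift this difference by -0.46, and then 5 members were higher and 32 lower, beside 1034 of all genes higher and 865 lower. On the deposited scale the median was below that of other pathway genes on both sides of a cut by coding length and of a separate cut by RNAi value. Lengths and levels can still differ between the sets within such a group, and their part was not tested. It was -0.12 against 1.05 for coding lengths under 2 kb and -0.11 against 0.32 at 2 kb or more. For RNAi values under 300 it was 0.24 against 1.04, and -0.18 against 0.51 at 300 or more. The rule limited the WT value relative to the RNAi value in both of these sets, but not in all genes. Members had higher RNAi values than other pathway genes (median 467 against 248), so the rule allowed them higher WT values. Their median WT value was 66 against 50.5, and a higher WT value makes this difference lower. How much this contributed was not tested. Counting every difference, 74 of 130 members were lower in xrn1 than in WT.

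**Figure D3:**
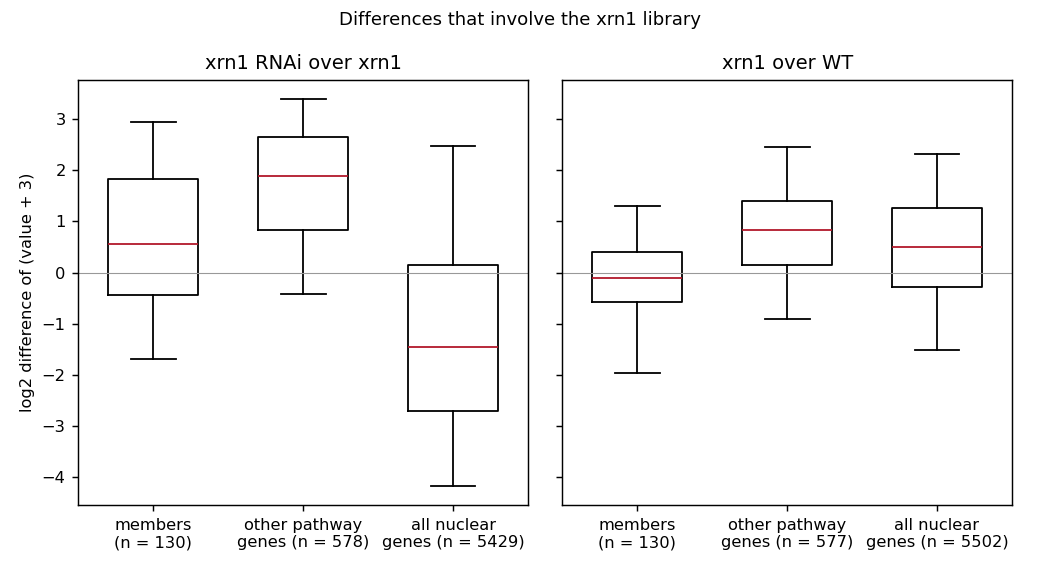
Log2 difference of value plus 3 in xrn1 RNAi over xrn1 (left) and in xrn1 over WT (right) for members, other pathway genes and all counted nuclear genes. Boxes span the quartiles with the median as a red line and whiskers reach the 5th and 95th percentiles; the members' median lies below that of other pathway genes in both panels, at 0.56 against 1.88 and at -0.11 against 0.83.

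After adding 3 to each value, the members lowest in xrn1 relative to WT, among those with 50 or more in the higher library, were SPO75 (14.9-fold lower in xrn1, interval 7.68 to 31.5), FRE5 (9.81-fold), AMF1 (9.64-fold), FRE4 (9.44-fold) and CRR1 (6.90-fold). These are plain folds. AMF1, an ammonium facilitator gene, had 101 in xrn1 RNAi, 762 in RNAi, 14.2 in xrn1 and 137 in WT. Over the whole spore formation list, members included, 0 of 34 genes were 2-fold or more higher in xrn1 and 19 lower. The median log2 difference of that list was -1.40. Over the 26 meiosis genes 0 were higher and 13 lower. The shares over all counted genes were 33.3% higher and 10.1% lower. Some listed genes had few reads, such as REC104, with 1.98 in xrn1 and 5 in WT. In some, WT alone was high, as for AMA1 (0.534 in xrn1 RNAi, 1.27 in RNAi, 4.96 in xrn1 and 110 in WT), but not in ADY3 (39.0 in xrn1 and 31 in WT). In RNAi over WT, 19 of the 34 and 11 of the 26 were lower too, and 4 and 3 higher. The shares over all counted genes there were 60.2% lower and 15.2% higher. A high value in the 1 WT library and an effect of XRN1 loss cannot be told apart. At the other end were TAF8, NHP6A, SHB17, TKL1 and EDE1. TAF8, a gene of the general transcription factor TFIID, had 53.4 in xrn1 RNAi, 173 in RNAi, 166 in xrn1 and 38 in WT, 4.36-fold higher in xrn1 (3.13 to 6.23). SHB17, a sedoheptulose bisphosphatase gene, had 182 in xrn1 RNAi, 923 in RNAi, 220 in xrn1 and 61 in WT. The SHB17 value in xrn1 was somewhat above that in xrn1 RNAi. TKL1, the transketolase gene of the same sugar phosphate network, had 84.0 in xrn1 RNAi, 735 in RNAi, 314 in xrn1 and 98 in WT. EDE1, a scaffold gene of early endocytosis, had 110 in xrn1 RNAi, 849 in RNAi, 244 in xrn1 and 79 in WT. On the deposited scale all 5 were higher in xrn1 than in xrn1 RNAi; with size factors SHB17 and EDE1 lay the other way, at log2 differences of 1.31 and 0.45 in xrn1 RNAi over xrn1, and TAF8 was near equal, at -0.02.

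The order of the 4 libraries varied among members. RNAi was followed by xrn1 RNAi, WT and xrn1 in 48 members, by xrn1, WT and xrn1 RNAi in 26, and by xrn1 RNAi, xrn1 and WT in 20. Neighbouring ranks often lay within counting error, as for PPN1 in xrn1 and WT (171 and 170), and 19 members had fewer than 50 reads in xrn1, the lowest count being 4.

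Position in the genome was not used by the rule either. Convergent genes can give overlapping transcripts from opposite strands. A convergent neighbour whose end lay within 200 bases was annotated for 7 members (5.38%), against 22.1% of other pathway genes, 26% of 231 genes raised by XRN1 loss, and 22.6% of all 5770 genes with coordinates. The raised genes had 50 or more in xrn1 RNAi and, with 3 added, at least 3 times the RNAi value and 2 times the xrn1 value. The 7 were BUD3, DIT2, PPN1, OXA1, SRS2, TOR1 and SPO75. A convergent neighbour at any distance was found for 28.5% of members, against 43.8% of other pathway genes and 51.8% of all genes. A divergent one was found for 53.1%, against 53.8% and 52.0%. An overlapping gene on the opposite strand was annotated for 2 members (1.54%), against 1.73% of other pathway genes.

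Members were also longer. Their median coding length was 2133 bases, against 1512 in other pathway genes, 948 in genes raised by XRN1 loss and 1206 in all genes, and 35 members (26.9%) had 3 kb or more, against 8.13% of other pathway genes. The share of pathway genes that are members was 9.43% under 1 kb, 12.8% from 1 to 2 kb, 25% from 2 to 3 kb and 42.7% at 3 kb or more. Values are not divided by length, and the median RNAi value of pathway genes rose from 146 under 1 kb to 776 at 3 kb or more. The share of members also rose with the RNAi value, from 7.48% at 50 to 100 to 28.3% at 1000 or more. The share with a close convergent neighbour was lower in members on both sides of 2 kb. It was 2 of 54 members against 92 of 410 other pathway genes under 2 kb, and 5 of 76 against 36 of 167 at 2 kb or more. Lengths within these groups were not matched. Members within 50 kb of a chromosome end numbered 23 (17.7%), against 10.6% of other pathway genes, but within 30 kb the shares were 5.38% and 5.19%. A tRNA gene lay within 1000 bases of 3.85% of members against 3.98% of other pathway genes, and a Ty element or long terminal repeat near 2.31% against 4.67%. Lengths, levels and gene ends are tied to each other, and their part in the differences between libraries was not tested.

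**Figure D4:**
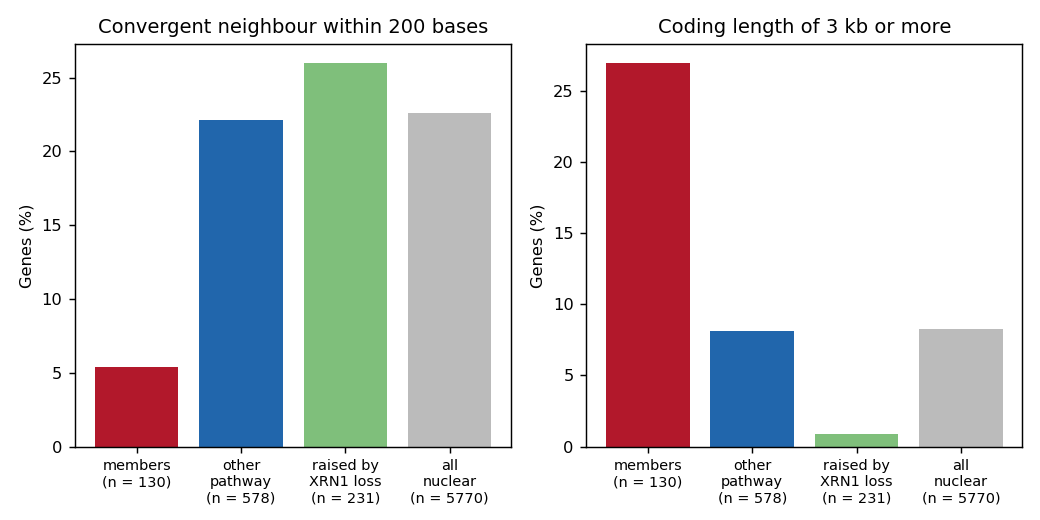
Percent of genes with a convergent neighbour within 200 bases (left) and with a coding length of 3 kb or more (right) in members, other pathway genes, genes raised by XRN1 loss and all nuclear genes with coordinates. Bars are shares without an error; members have 5.38% and 26.9%, and other pathway genes 22.1% and 8.13%.

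Some members lay next to each other, in 8 pairs. On chromosome V, YER152C, PET122 and OXA1 formed a run of 3. PET122 (YER153C), which encodes a translational activator of a mitochondrial cytochrome oxidase subunit, had 147 in xrn1 RNAi, 1584 in RNAi, 24.5 in xrn1 and 34 in WT. OXA1 (YER154W), the inner membrane insertase gene of mitochondria, had 161 in xrn1 RNAi, 1191 in RNAi, 137 in xrn1 and 143 in WT. YER152C had 39.3 in xrn1 RNAi, 212 in RNAi, 53.2 in xrn1 and 28 in WT. PET122 was 10.8-fold lower in xrn1 RNAi than in RNAi, OXA1 7.39-fold and YER152C 5.39-fold. UBP3 next to YER152C had 5.79 in xrn1 RNAi and 7.62 in RNAi, so the high RNAi values ended there. BEM2, convergent with OXA1 at 116 bases, had 55.2 in xrn1 RNAi, 195 in RNAi, 271 in xrn1 and 361 in WT. PET122 and OXA1 are divergent, and the 214 bases between their start codons, chrV:474806-475019 on the forward strand in R64, are shown because a single region separates 2 members; they hold none of the 8 motifs.
PET122-OXA1: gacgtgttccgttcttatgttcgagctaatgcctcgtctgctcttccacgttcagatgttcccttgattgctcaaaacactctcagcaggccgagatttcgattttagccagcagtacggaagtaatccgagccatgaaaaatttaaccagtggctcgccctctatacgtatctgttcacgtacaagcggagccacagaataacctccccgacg

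On chromosome XVI, NHP6A and SMK1 are divergent at a distance of 305 bases. They shared a high RNAi value but not the rest, as NHP6A was 4.04-fold higher in xrn1 than in WT (2.73 to 6.22) and SMK1 was 4.89-fold lower in xrn1 than in WT (2.34 to 10.6). MAK3 beyond NHP6A (5.41 in xrn1 RNAi and 3.18 in RNAi) and SEC8 beyond SMK1 (31.6 in xrn1 RNAi and 14.9 in RNAi) had low RNAi values. TKL1 and OPY2, a gene for a membrane anchor in osmotic signalling, lie 898 bases apart in tandem; OPY2 had 109 in xrn1 RNAi, 340 in RNAi, 94.2 in xrn1 and 61 in WT. On chromosome XV, AMF1, RDR1, a repressor gene of multidrug resistance, and FRE3 follow each other in tandem, and FRE5 lies 4 listed genes beyond FRE3. RDR1 had 22.0 in xrn1 RNAi, 98.1 in RNAi, 35.0 in xrn1 and 29 in WT. FIT2 and FIT3, cell wall iron genes between FRE3 and FRE5, both had 2.22 in RNAi.

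**Figure D5:**
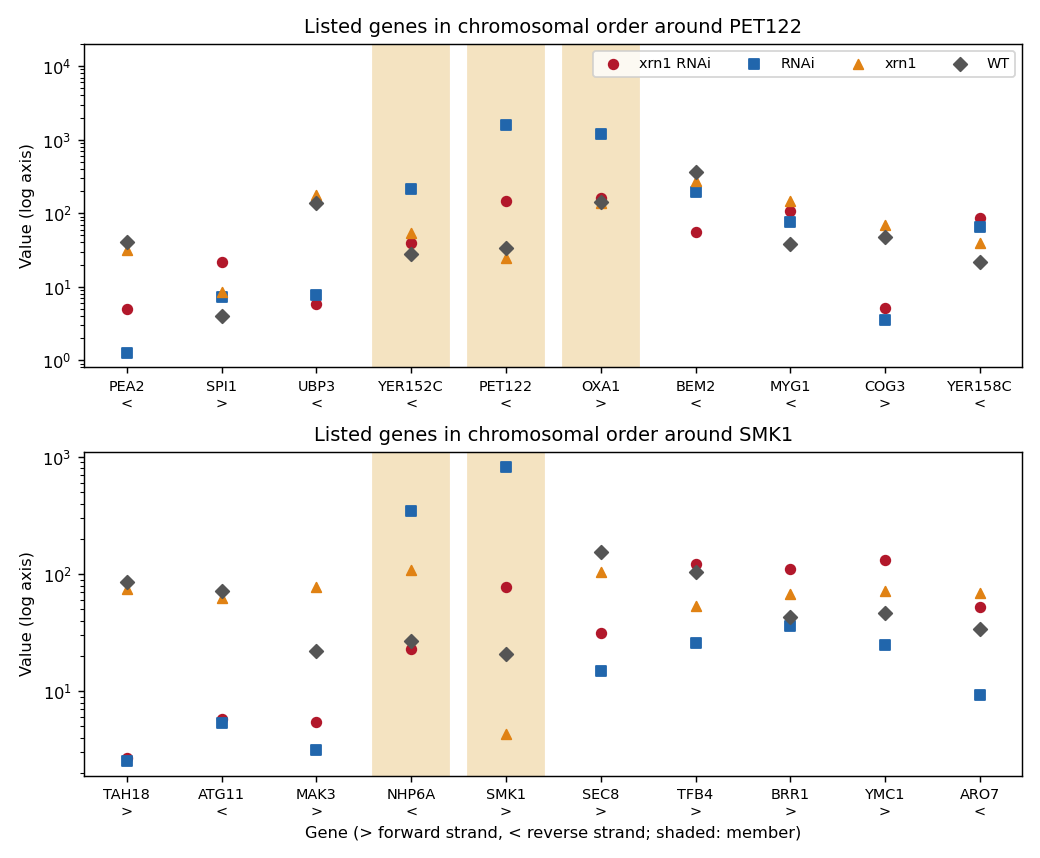
Small RNA value (y axis, log scale) of 10 listed genes in chromosomal order around PET122 (top) and SMK1 (bottom) in xrn1 RNAi (red circles), RNAi (blue squares), xrn1 (orange triangles) and WT (grey diamonds). Shaded members have the highest value in RNAi (1584 for PET122 and 826 for SMK1), while UBP3 and MAK3 beside them have 7.62 and 3.18 in RNAi.

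LIF1, a gene of DNA end joining, and MF(ALPHA)2, a mating pheromone gene, are convergent at 206 bases, just beyond the limit of 200. LIF1 had 131 in xrn1 RNAi, 786 in RNAi, 61.5 in xrn1 and 67 in WT. MF(ALPHA)2 had 98.6 in xrn1 RNAi, 345 in RNAi, 41.3 in xrn1 and 47 in WT. MTO1, a mitochondrial tRNA modification gene, and YGL235W overlap by 518 bases on opposite strands. MTO1 had 55.3 in xrn1 RNAi, 172 in RNAi, 64.8 in xrn1 and 41 in WT. YGL235W had 8.77, 56.5, 3.63 and 6. The sources used here do not say how strands were counted, so reads of the 2 genes cannot be told apart. The first 150 bases of YGL235W, chrVII:55279-55428 on the forward strand in R64, are shown as an example of sequence that both genes hold, with its start codon in capitals.
YGL235W: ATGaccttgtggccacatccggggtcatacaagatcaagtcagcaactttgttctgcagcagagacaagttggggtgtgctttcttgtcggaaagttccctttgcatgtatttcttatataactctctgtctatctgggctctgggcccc

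Beside the members, the nearest listed genes were mostly no pathway genes: 15.4% of neighbours of members were, against 19.9% for other pathway genes and 12.3% for all genes. The median RNAi value of the neighbours was 17.9 for members and 19.4 for other pathway genes. Some neighbours are members themselves and lower by the rule, 16 of 260 beside members and 24 of 1155 beside other pathway genes. Without them, the median log2 difference of the neighbours in xrn1 RNAi over RNAi was 0.25 for members, 0.36 for other pathway genes and 0.45 for all genes.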

How the data were processed

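Per the labels' protocols, RNA of 10 to 40 nucleotides was size-selected by electrophoresis and turned into Illumina small RNA libraries. The submitters' processing notes name cutadapt and Bowtie; the sources used here do not give versions, genome build, annotation, strand treatment, multi-mapping or scaling. The WT column holds a count of reads per gene as deposited by the authors. The other 3 columns hold a deposited signal equal to whole reads times 1 factor per library (100% whole at a tolerance of 1e-06), from which reads were recovered.

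The members and lists were chosen with earlier results of these data known, and role groups after values were seen. Differences are log2 of value plus 3, which understates the change of low genes. Genes with 3 or more in a library of the comparison were counted as higher or lower at 2-fold. Folds are plain ratios with exact Clopper-Pearson intervals, which cover counting error only, since reads without molecular identifiers are not independent molecules. With 1 library per genotype, the comparisons of single libraries have no test. Because only 1 column held counts, an additive edgeR 4.0.16 fit (R 4.3.3) on recovered reads was only an alternative, added after the data were seen, as were the splits by length and level. Counting and edgeR were tested on simulated data.

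Of the identifiers, 5770 matched RefSeq R64 with coordinates and 5 did not; the table's build is not known. Members were named by fixed rules: the 12 highest in RNAi, the 10 largest ratios, the 5 highest and lowest in both comparisons with xrn1, 3 on each side of the ratio of 3, adjacent members, and up to 4 per list. SPO21, SPR1, ADY3, SPO14, FLO1, FLO10, the fifth filamentous growth gene, and neighbours were added after their values were seen. Python 3.11.15, numpy 2.4.6, pandas 2.3.3, scipy 1.17.1 and matplotlib 3.10.9 were used.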

Additional observations from a re-analysis of the deposited data

Results flagged for a closer look

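In 17 members DCR1 and AGO1 went with a higher value in cells with XRN1, as the rule requires, and with a value at least 2-fold lower in cells without it (xrn1 RNAi over xrn1). The difference between the 2 backgrounds was not tested, since there is 1 library for each genotype, and both the rule and the choice of the 17 favour it. The log2 difference in xrn1 RNAi over xrn1 was -3.01 for PGI1, -2.82 for PRP39, -2.11 for NHP6A, -2.07 for MAK10, -1.86 for FPK1 and -1.86 for TKL1. It was -1.71 for the trehalose synthesis gene TSL1, -1.68 for HBT1, -1.63 for GIP3, -1.58 for the spindle pole body gene SPC110, -1.58 for TAF8 and -1.57 for the osmosensor gene SLN1. It was -1.52 for the Mediator gene GAL11, -1.47 for the endocytosis gene SLA2, -1.46 for the chaperone gene SSA4, -1.26 for NUM1, a cortical anchor gene of nuclear migration, and -1.13 for EDE1. For comparison, 58.0% of all counted genes were 2-fold or more lower there. With size factors, 2 of all 130 members were.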

How the results depend on the processing

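The number of genes that meet the rule depended most on scale. It was 504 with size factors, which hold all 130 members, 242 with a fold of 2 and 40 with a fold of 6 in place of 3, and between 90 and 136 with the other 5 settings. Relative to all genes, the members' median was 2.02 in xrn1 RNAi over xrn1 and -0.62 in xrn1 over WT. With a pseudocount of 30 these were 1.10 and -0.40; in xrn1 over WT, 8 members were then lower, and 976 of all genes were higher and 231 lower.

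With size factors, which shift xrn1 RNAi over xrn1 by 1.61 and xrn1 over WT by -0.46 on the log2 scale, the members' median was 1.95, with 97 higher and 2 lower, in the first, where 1778 genes were higher and 1669 lower. In xrn1 over WT it was -0.52 with 5 members higher, and 1034 genes were higher and 865 lower. Division by each library's sum gave -0.56, 5, 1158 and 979 there. In xrn1 RNAi over xrn1, EDE1 reversed to 0.45 with size factors, and SHB17, which was under 2-fold, changed sign to 1.31. With 1 library at 50 or more, 345 genes were lower in xrn1 over WT.

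No member had a convergent neighbour within 50 bases (0, against 1.84% of all genes). The added edgeR quasi-likelihood fit, with 1 residual degree of freedom and the 2 backgrounds as replicates, found 1128 genes higher and 1028 lower with the pathway at an adjusted p under 0.05, and 12 higher and 14 lower with loss of XRN1 (731 at an unadjusted p under 0.05). The residual of this additive fit is the difference in the pathway's effect between the 2 backgrounds. It measures no spread between replicates. The cause of the changes found was not tested. The labels give no replicate numbers, so no fit had a block by replicate.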
